A study of Mus musculus with 19 samples.

Results

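The genes described here are 42 cell cycle and proliferation genes, taken as a list by symbol, of which 40 were measured among 22180 genes on the array. They were separated by role into 22 genes of G1 and S phase, of which 21 were measured, and 20 genes of mitosis, of which 19 were measured. A gene with several probe sets is given by the one of highest mean level. Ccnb1 had no probe set under its own symbol in the annotation used here, and the probe set of Ccne2 is shared with Ints8 and was not given to either gene.

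RNA came from whole liver of 19 mice aged 2 to 3 months, with 1 single-colour Affymetrix array per animal. Each animal carried 1 of 3 genotype codes, WT, KO or TG, and had been fed for the last 4 weeks either normally (ND, normal diet) or on high fat (HFD, high-fat diet). There were 3 arrays each of WT ND, KO ND, TG ND, WT HFD and KO HFD, and 4 of TG HFD. In the sample titles the animal numbers have 2 digits for all ND animals and 4 digits for all HFD animals. Diet therefore cannot be told apart from anything else that differs between these series of numbers. The series is about Kcp, the Kielin/chordin-like protein, a secreted modulator of BMP and TGF-beta signalling, but the labels do not spell out the codes, and the allele, the promoter of the transgene, the strain and the sex are not given in the sources used here. The design compares all genotypes and diets, and none of the groups was given a proliferative stimulus that the labels record.

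Adult hepatocytes are almost all out of the cell cycle. When they are recruited, for instance after loss of tissue, D-type cyclins with Cdk4 release E2F factors from the retinoblastoma protein, E2F factors switch on the genes of replication, and a later wave of genes, driven through the DREAM complex, B-Myb and Foxm1, carries cells into mitosis. Kupffer cells, endothelial cells and other residents of the liver divide on their own schedule and contribute to the RNA of whole tissue. In such tissue, fewer cells of a dividing kind and less RNA per cell cannot be told apart.

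In front of some of these genes the sequence shows elements through which both waves are known to be controlled. Among 34 of the 42 genes found in the RefSeq promoter table (GRCm38.p6, 27025 genes), the 250 bases before the start were searched on both strands for 3 motifs: an E2F motif (TTTNNCGC, each N being C or G), the cell cycle homology element CHR (TTTGAA) and the CCAAT box. The E2F motif lay in front of 6 of 18 genes of G1 and S phase (33.3%) and 2 of 16 of mitosis (12.5%), against 2.16% of all genes. The CHR motif lay in front of 2 of 18 (11.1%) and 6 of 16 (37.5%), against 18.3% of all genes, and the CCAAT box in front of 11 of 18 (61.1%) and 14 of 16 (87.5%), against 37.5%. The 6 promoters below are shown as examples and not as all the genes behind the results. Cenpm, Cdc6 and Rrm2 passed in a comparison described here, and Mcm5 came close without passing. Mki67 and Top2a are the usual markers of dividing cells. Each runs 5′ to 3′ on the strand of its gene and ends at the last base before the annotated start, and capitals mark matches to the 3 motifs on either strand.
Cenpm (chr15:82244337-82244586, minus strand): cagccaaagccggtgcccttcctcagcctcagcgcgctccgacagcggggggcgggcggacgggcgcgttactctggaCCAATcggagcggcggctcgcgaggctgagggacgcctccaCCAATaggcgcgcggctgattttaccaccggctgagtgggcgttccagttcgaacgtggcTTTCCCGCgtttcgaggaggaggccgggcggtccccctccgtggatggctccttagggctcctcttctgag
Cdc6 (chr11:98907901-98908150, plus strand): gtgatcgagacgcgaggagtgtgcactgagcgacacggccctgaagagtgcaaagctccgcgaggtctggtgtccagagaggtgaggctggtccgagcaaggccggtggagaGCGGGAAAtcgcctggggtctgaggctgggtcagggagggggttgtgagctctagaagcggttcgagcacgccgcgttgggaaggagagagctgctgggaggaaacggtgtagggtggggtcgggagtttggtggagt
Mcm5 (chr8:75109259-75109508, plus strand): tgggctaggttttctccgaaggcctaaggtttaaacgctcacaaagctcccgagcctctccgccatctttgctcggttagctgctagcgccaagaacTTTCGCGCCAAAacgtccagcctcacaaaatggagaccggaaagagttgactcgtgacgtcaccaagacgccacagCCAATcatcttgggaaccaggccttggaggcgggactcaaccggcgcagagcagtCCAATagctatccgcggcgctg
Rrm2 (chr12:24708004-24708253, plus strand): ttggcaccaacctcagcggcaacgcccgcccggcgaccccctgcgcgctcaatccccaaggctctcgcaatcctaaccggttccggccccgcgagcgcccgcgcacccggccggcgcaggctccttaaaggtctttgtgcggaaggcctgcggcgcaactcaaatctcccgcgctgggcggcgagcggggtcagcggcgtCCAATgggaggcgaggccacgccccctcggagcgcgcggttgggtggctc
Mki67 (chr7:135716380-135716629, minus strand): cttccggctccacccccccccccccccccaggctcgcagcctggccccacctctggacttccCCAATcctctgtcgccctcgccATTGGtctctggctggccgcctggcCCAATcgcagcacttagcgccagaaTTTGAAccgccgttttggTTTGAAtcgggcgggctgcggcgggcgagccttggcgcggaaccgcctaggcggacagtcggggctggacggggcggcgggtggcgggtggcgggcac
Top2a (chr11:99024190-99024439, minus strand): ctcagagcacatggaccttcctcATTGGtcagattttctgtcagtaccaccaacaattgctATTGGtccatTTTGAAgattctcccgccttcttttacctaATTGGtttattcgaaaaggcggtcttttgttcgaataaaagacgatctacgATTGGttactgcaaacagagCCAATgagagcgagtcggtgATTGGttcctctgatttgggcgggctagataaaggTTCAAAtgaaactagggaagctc
Cenpm, listed with the mitotic genes, holds an E2F match and 2 CCAAT boxes and no CHR match in this window. Cdc6 holds an E2F match alone, and Mcm5 holds 2 E2F matches that overlap each other, with 2 CCAAT boxes. Rrm2 holds 1 CCAAT box and neither other motif. Ccne1, which also passed in a comparison and is not shown, holds none of the 3 motifs in this window. Ccnd2, which passed too, was not found in the promoter table. Mki67 has 2 CHR matches and 3 CCAAT boxes, and Top2a 2 and 6. These letters are descriptions of the sequence and not measured binding.

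Most mitotic genes were near the bottom of the array in every liver. Values are the deposited log2 signals, and a gene is called dim here when its mean over the 19 arrays is below 2. Of the 19 mitotic genes 16 were dim (84.2%), against 56.5% of all genes, while 1 of the 21 genes of G1 and S phase, the licensing factor Cdc6, was dim. The mitotic genes that were not dim were Mki67, the Ki-67 antigen of dividing cells, with a mean of 2.20, the centromere protein Cenpm with 3.49, and the centromeric histone Cenpa with 2.37. Cdk1, the kinase that drives mitotic entry, averaged 0.74 and never rose above 1.07 in any array. Ccna2, its S and G2 cyclin, stayed between 0.69 and 1.47, and Foxm1, the transcription factor of the G2 genes, between 0.28 and 1.10. At such levels a change may be compressed by background, so a small difference there is a weak measurement.

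Taken over all levels of signal, the genes of G1 and S phase varied more, both between groups and within them. The range of the 6 group means had a median of 0.73 among the 21 genes of G1 and S phase, 0.36 among the 19 mitotic genes and 0.36 among all genes. The median standard deviation (SD) between arrays of a group was 0.313, 0.228 and 0.208 in the same order. A range below 0.5 was found for 6 of 21 genes of G1 and S phase, 15 of 19 mitotic genes and 73.0% of all genes.

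**Figure D1:**
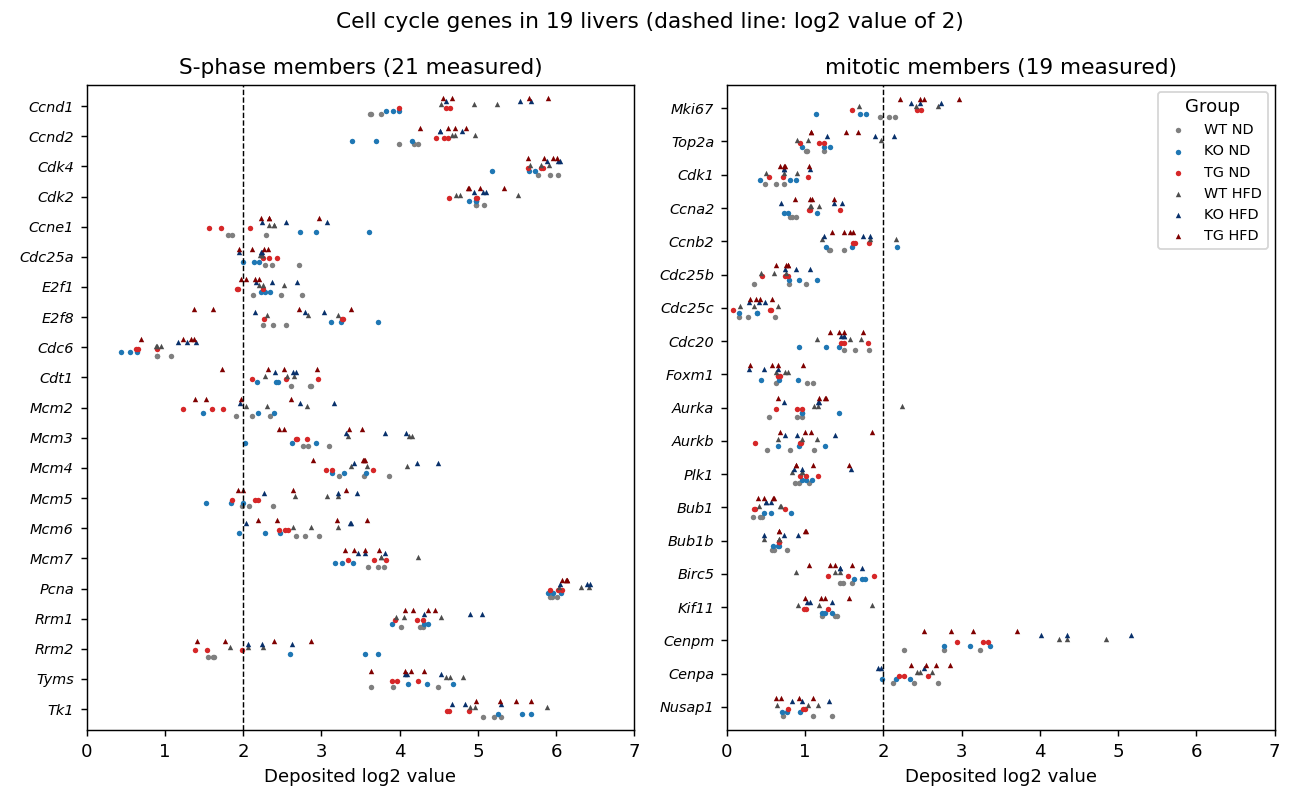
Deposited log2 value of each measured cell cycle gene in each of 19 livers, 21 genes of G1 and S phase on the left and 19 mitotic genes on the right, with colour for genotype, circles for ND and triangles for HFD. Most mitotic genes lie left of the dashed line at 2, and Cenpm is the mitotic gene whose 6 group means span the widest range, 1.75.

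The arrays were alike in their overall level, which normalization between arrays brings about. Array medians lay between 0.98 and 1.07, and arrays of a group correlated at 0.968 to 0.979 over all probe sets. The mean correlation with arrays of other groups was lowest for WT HFD replicate 1 (0.963) and next lowest for TG HFD replicate 2 (0.965). Kcp lay between 5.35 and 5.81 in TG livers and between 1.64 and 2.82 in all others, and KO against WT gave -0.52 on ND (adjusted p = 0.215) and -0.22 on HFD (adjusted p = 0.844). Where its 1 probe set lies relative to any deleted part is not known here, so this does not check the KO label. The hepatocyte product Alb lay between 12.26 and 12.51 throughout. Macrophage markers were higher in TG: the log2 of their summed level over 22 markers was 10.06 to 10.77 in the TG groups against 8.84 to 9.22 in WT, 8.97 to 9.51 in KO ND and 9.44 to 9.74 in KO HFD. Of the 22 markers 15 rose in TG ND and 17 in TG HFD against WT on the same diet, and each of the 22 reached 1 in some array.

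Few of the 40 genes were higher on HFD than on ND, and these few were Cenpm in WT and Cenpm, Ccnd2 and Cdc6 in KO. Each difference below is a log2 difference from 1 limma model of all 19 arrays, and a gene is said to have risen or fallen when its p, adjusted by Benjamini-Hochberg over 22180 genes, is under 0.05. In WT livers 1 of 40 rose and none fell, with 1.32% of all genes called. In KO livers 3 of 40 rose and none fell, with 0.803% of all genes called. In TG livers none of 40 was called in limma at a background of 0.906%. At an unadjusted p under 0.05 in limma, 4 of 40 were higher and none lower in TG, against 969 and 1265 of all 22180 genes. At that p 8 were higher and none lower in WT, against 1289 and 1196 of all genes. In KO 12 were higher and 2 lower, against 1461 and 1055 of all genes. The closest in TG were Cdc6 (0.43, adjusted p = 0.215), the thymidine kinase Tk1 (0.65, adjusted p = 0.243) and Ccne1 (0.67, adjusted p = 0.248).

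Some lists of markers of other liver cells leaned upwards with diet in KO beside these 3 calls, mostly below the threshold. In KO HFD against KO ND 50.9% of all genes were above 0, and 56.5% of those not dim, with 0.803% of all genes called. At an unadjusted p under 0.05 in limma, 1461 of all 22180 genes were higher and 1055 lower. Of 16 markers of stellate cells and fibroblasts, 14 were above 0 in KO HFD against KO ND, with a median difference of 0.53, and 2 rose (Reln and Cygb). The log2 of their summed level was 9.27 to 9.70 in KO ND and 9.46 to 9.97 in KO HFD. Of 22 macrophage markers 20 were above 0 with a median of 0.51, and none was called in limma, with 10 higher and 1 lower at an unadjusted p under 0.05. Their summed level was 8.97 to 9.51 in KO ND and 9.44 to 9.74 in KO HFD. Of 14 markers of sinusoidal endothelium 12 were above 0 with a median of 0.14, and none was called, with 3 higher and none lower at an unadjusted p under 0.05, and their summed level was 9.91 to 10.10 and 9.86 to 10.39. In WT the median diet differences of the 3 lists were 0.12, 0.11 and -0.11. In KO the other marker lists had medians between -0.15 (erythroid cells) and 0.10 (T and NK cells). These lists cover T and NK cells, B and plasma cells, neutrophils, erythroid cells, cholangiocytes and hepatocytes. The part of these cells in the result was not tested.

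Below the threshold the genes of G1 and S phase leaned upwards on HFD. Their median difference was 0.22 in WT, 0.33 in KO and 0.11 in TG, with 14, 16 and 17 of 21 above 0, against medians between 0.003 and 0.005 and 50.7% to 50.9% above 0 among all genes. The mitotic genes had medians of 0.09, 0.07 and 0.04, with 11, 11 and 12 of 19 above 0. In WT 11 of the 40 genes had every HFD array above every ND array and 1 had every HFD array below, where 7.73% and 7.4% of all genes did so. In KO the counts were 10 and 1, where all genes gave 9.22% and 7.83%, and in TG 3 and 0, where all genes gave 4.24% and 5.25%. In WT and KO the count of higher genes was thus above what those shares give for 40 genes. Those shares include dim genes, while 20 of the 21 genes of G1 and S phase were not dim. Among the 9657 genes of the array with a mean of at least 2, the background was larger. Of these, 1074 were higher without overlap in WT, 1478 in KO and 496 in TG. In the same order 48.1%, 56.5% and 40.8% of them were above 0, with medians of -0.01, 0.04 and -0.05.

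Calls between genotypes fell mainly on the normal diet and between KO and the other genotypes. KO ND against TG ND, with the most calls, also had the largest share of all genes called. Counts this small do not set the 40 genes apart from the shares of all genes given beside them. In KO ND against WT ND the ribonucleotide reductase subunit Rrm2 and cyclin E1 (Ccne1) rose and none fell, 2 of 40, with 2.98% of all genes called. In KO ND against TG ND the same 2 genes were higher and cyclin D2 (Ccnd2) was lower, 3 of 40, with 4.2% of all genes called. Both comparisons use the same KO ND arrays. In TG ND against WT ND none of 40 was called in limma at a background of 1.3%. At an unadjusted p under 0.05, 2 of 40 were higher and 1 lower, against 1176 and 1036 of all 22180 genes. The smallest p there belonged to E2f1 (-0.41, adjusted p = 0.339), Ccnd2 (0.42, adjusted p = 0.405) and cyclin D1 (Ccnd1, 0.74, adjusted p = 0.442).

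On the high-fat diet Cenpm was the gene that separated TG from the other genotypes. It fell in TG HFD against WT HFD, 1 of 40 with 3.57% of all genes called, and was higher in KO HFD than in TG HFD, 1 of 40 with 2.35% of all genes called. Both comparisons use the same TG HFD arrays. In KO HFD against WT HFD none of 40 was called in limma at a background of 0.338%. At an unadjusted p under 0.05, 2 of 40 were higher and 1 lower, against 990 and 855 of all 22180 genes. The closest were the ribonucleotide reductase subunit Rrm1 (0.57, adjusted p = 0.350), Cdc6 (0.37, adjusted p = 0.50) and the thymidylate synthase Tyms (-0.45, adjusted p = 0.594). Over the 9 comparisons 5 of the 40 genes were called at least once and 35 never, which made 11 calls in 360 tests. The same comparisons called between 0.338% and 4.2% of all genes. Only 1 of the 5, Cenpm, is a mitotic gene, and 16 of the 19 mitotic genes were dim, where a call is harder to reach.

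**Figure D2:**
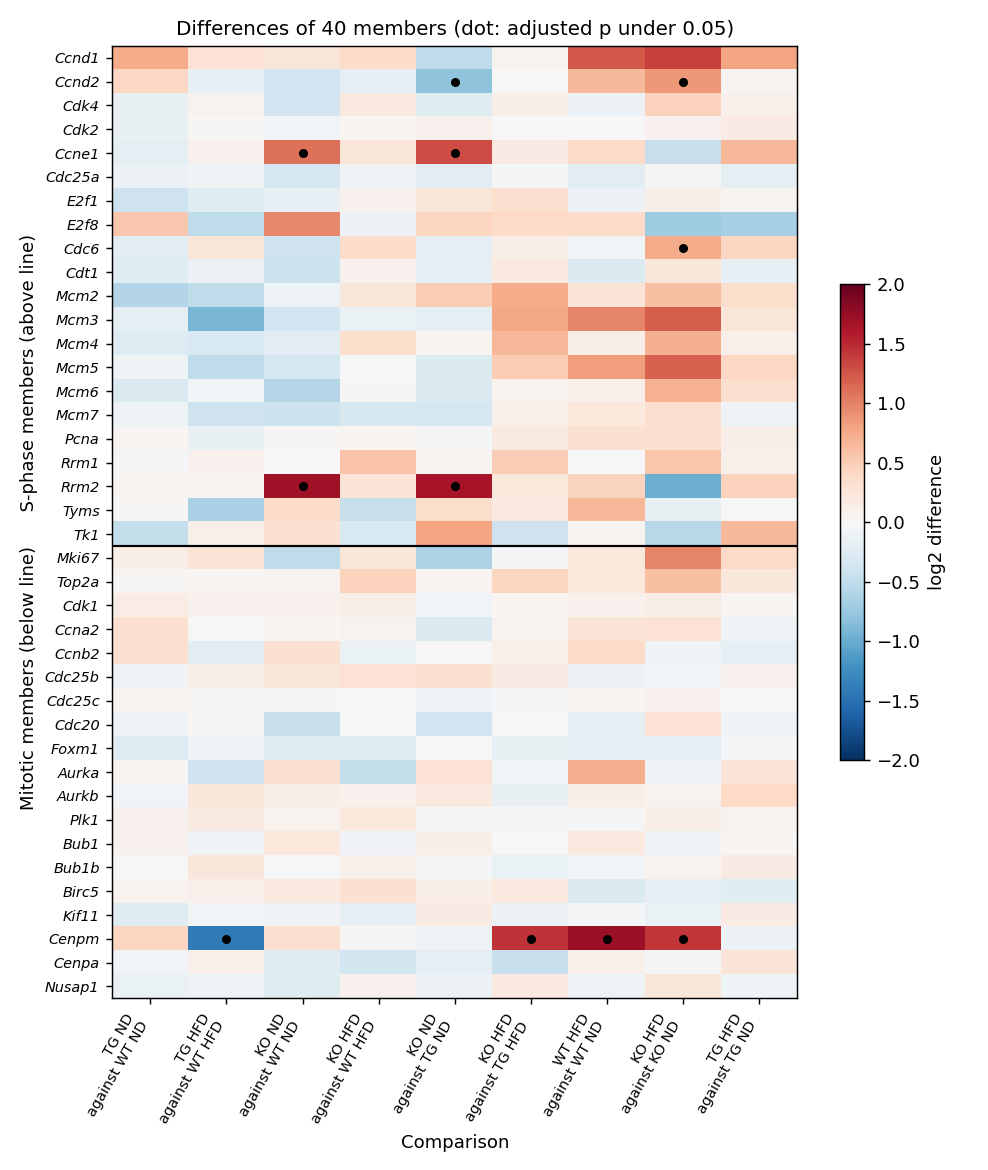
Log2 difference of each of 40 cell cycle genes (rows) in each of 9 comparisons of 2 groups (columns), from the limma model; red is higher and blue lower in the group named first, and a dot marks an adjusted p under 0.05. The 11 dots fall on Ccnd2, Ccne1, Cdc6, Rrm2 and Cenpm.

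Among the cyclins that open the cycle, Ccnd1 was higher on HFD in all 3 genotypes without passing in any. Ccnd1, whose product activates Cdk4 in early G1 and is the D-type cyclin induced in regenerating liver, read 3.62, 3.76 and 3.63 in WT ND and 4.95, 4.52 and 5.25 in WT HFD. In KO it read 3.83, 3.91 and 3.99 on ND and 5.67, 5.54 and 4.60 on HFD. In TG it read 4.00, 4.65 and 4.59 on ND and 4.56, 5.66, 5.89 and 4.67 on HFD. In WT and KO every HFD array lay above every ND array, and in TG the groups overlapped. The difference was 1.23 in WT (SE 0.32, adjusted p = 0.0812), 1.36 in KO (SE 0.32, adjusted p = 0.0594) and 0.78 in TG (SE 0.30, adjusted p = 0.343). In WT it passed when only the 6 arrays compared were fitted (adjusted p = 0.0304), and when dim genes were left out (adjusted p = 0.0493). TG ND arrays already lay above all WT ND arrays, by 0.74 on average, which did not pass.

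Ccnd2, the cyclin D2 gene and another partner of Cdk4, rose on HFD in KO livers. It read 4.16, 3.40 and 3.69 in KO ND and 4.80, 4.52 and 4.51 in KO HFD, so that the groups did not overlap. The rise was 0.86 (SE 0.17, adjusted p = 0.0260), or 1.82-fold. In TG it hardly differed between diets, from 4.55 ± 0.08 on ND (SD, n = 3) to 4.61 ± 0.25 on HFD (SD, n = 4), a difference of 0.06 with a 95% confidence interval of -0.29 to 0.40. In WT it went from 4.14 ± 0.13 to 4.78 ± 0.16 (SD, n = 3 each), a difference of 0.65 that did not pass (SE 0.17, adjusted p = 0.0916). On ND it was lower in KO than in TG by 0.80 (SE 0.17, adjusted p = 0.0110), with all 3 KO arrays below all 3 TG arrays. KO ND replicate 2, the lowest array, bears on both calls: without it the diet difference in KO was 0.68 (adjusted p = 0.161) and the difference from TG was -0.63 (adjusted p = 0.0760). The diet call in KO was also lost without KO ND replicate 3 (adjusted p = 0.0907) and without KO HFD replicate 1, 2 or 3 (adjusted p = 0.138, 0.0698 and 0.0567). With only the arrays compared in the limma model, both calls were lost, at an adjusted p of 0.130 for diet in KO and 0.0671 for KO against TG on ND.

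Ccne1 encodes cyclin E1, which works with Cdk2 at the start of S phase. It read 3.60, 2.73 and 2.93 in KO ND, above 2.29, 1.80 and 1.86 in WT ND and 1.72, 2.08 and 1.57 in TG ND. All 3 KO arrays lay above all 6 arrays of the other genotypes on this diet. The difference was 1.10 from WT (SE 0.24, adjusted p = 0.0174, 2.15-fold) and 1.30 from TG (SE 0.24, adjusted p = 0.00407, 2.46-fold). On HFD the genotypes lay together, at 2.37 ± 0.04 in WT and 2.62 ± 0.42 in KO (SD, n = 3 each) and 2.46 ± 0.34 in TG (SD, n = 4), with a difference of KO from WT of 0.25 (95% confidence interval -0.27 to 0.76). The call against WT was lost without KO ND replicate 1 (0.84, adjusted p = 0.0907), WT ND replicate 2 (adjusted p = 0.0821) or WT ND replicate 3 (adjusted p = 0.0718), and the call against TG was kept without each of its 6 arrays.

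The kinases and E2F factors of this phase did not pass in the model of all arrays. Cdk4, the partner of D-type cyclins, had group means between 5.52 in KO ND and 5.99 in KO HFD, and Cdk2 between 4.87 in TG ND and 5.04 in KO HFD. The activator E2f1 had group means between 2.04 in TG ND and 2.45 in WT ND. E2f8, an atypical E2F that represses E2F targets and is known for its part in hepatocyte polyploidy, read 3.12, 3.25 and 3.72 in KO ND and 2.55, 2.26 and 2.38 in WT ND. These groups did not overlap, but the difference of 0.97 did not pass (SE 0.42, adjusted p = 0.303). It passed in limma when only the 6 arrays compared were fitted (adjusted p = 0.0360). E2f8 was also the gene of G1 and S phase with the widest scatter in TG HFD, from 1.37 to 3.38.

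**Figure D3:**
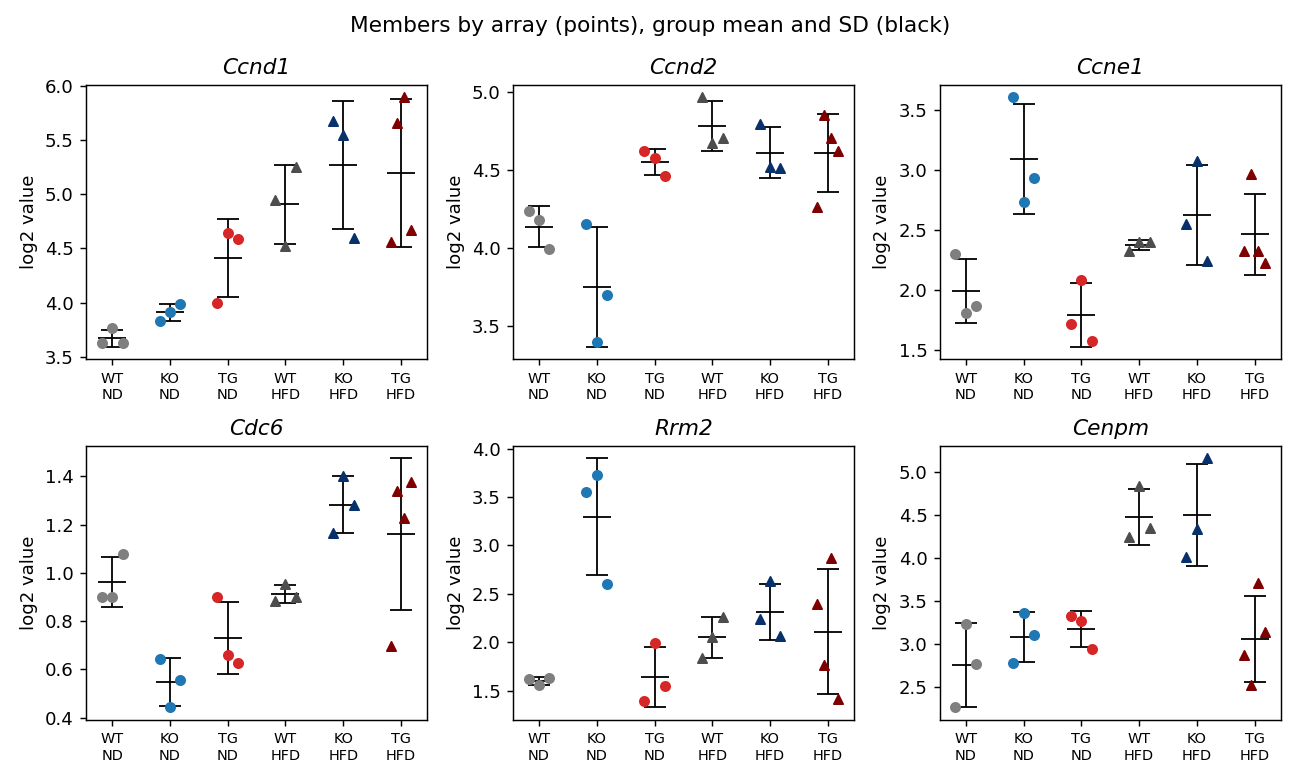
Deposited log2 values of Ccnd1, Ccnd2, Ccne1, Cdc6, Rrm2 and Cenpm in each array (points, circles for ND and triangles for HFD) with the group mean and SD in black, on axes that differ between genes. Rrm2 and Ccne1 are high in KO ND, and Cenpm is high in WT HFD and KO HFD and not in TG HFD.

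Of the factors that license replication origins, Cdc6 rose on HFD in KO. Cdc6 loads the Mcm helicase onto origins together with Cdt1, and was dim here. It read 0.64, 0.44 and 0.56 in KO ND and 1.16, 1.40 and 1.28 in KO HFD, a rise of 0.73 (SE 0.15, adjusted p = 0.0264, 1.66-fold). The groups did not overlap, and KO ND was the lowest and KO HFD the highest of the 6 group means. In WT it read 0.90, 0.90 and 1.08 on ND and 0.88, 0.95 and 0.90 on HFD, a difference of -0.05 (95% confidence interval -0.36 to 0.27). WT ND replicates 1 and 2, WT HFD replicate 3 and TG ND replicate 1 held the identical value 0.900485. Aurkb, another dim gene, held that value in KO HFD replicate 2, and no KO array of Cdc6 did. Small differences at this level are weak measurements. In TG the difference was 0.43, and it passed only when TG HFD replicate 1, which read 0.70 beside 1.34, 1.23 and 1.38, was left out (0.58, adjusted p = 0.0208). The diet effect in KO exceeded that in WT by 0.78 (SE 0.21), which did not pass (adjusted p = 0.105) in the model of all arrays and passed when only the arrays of these 4 groups were fitted (adjusted p = 0.0414). The call in KO was lost without KO ND replicate 2 or 3 (adjusted p = 0.141 and 0.0860) or without KO HFD replicate 1, 2 or 3 (adjusted p = 0.0658, 0.107 and 0.0767). Cdt1 did not pass in any comparison, with group means between 2.35 in KO ND and 2.78 in WT ND.

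The 6 subunits of the Mcm2 to Mcm7 helicase, which unwinds DNA at the fork, were measured by 6 separate probe sets and lay on one side in several comparisons without any of them passing. On HFD all 6 were above 0 in WT (median 0.24) and in KO (median 0.70), and 5 of 6 in TG (median 0.28). In TG HFD against WT HFD all 6 were below 0 (median -0.46), and in KO HFD against TG HFD all 6 were above 0 (median 0.58). On ND all 6 were below 0 in KO and in TG against WT (medians -0.37 and -0.22). Comparisons that share a group are not independent of each other, and the subunits share their arrays.

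Mcm3 and Mcm5 came closest to passing. Mcm3 read 2.77, 2.83 and 3.10 in WT ND and 4.16, 3.35 and 4.13 in WT HFD, a difference of 0.98 with no overlap (SE 0.30, adjusted p = 0.145). In KO it read 2.62, 2.93 and 2.02 on ND and 3.82, 4.08 and 3.32 on HFD, a difference of 1.21 with no overlap (SE 0.30, adjusted p = 0.0658). In TG it read 2.69, 2.67 and 2.82 on ND and 2.52, 2.45, 3.52 and 3.36 on HFD, and these groups overlapped. TG HFD was lower than WT HFD by 0.91 (-0.91, SE 0.28, adjusted p = 0.0817), which passed without WT HFD replicate 2 (-1.18, adjusted p = 0.0366), without TG HFD replicate 3 (-1.10, adjusted p = 0.0332) and with dim genes left out (adjusted p = 0.0482). Mcm5 differed on HFD by 0.84 in WT (SE 0.32, adjusted p = 0.289) and by 1.18 in KO (SE 0.32, adjusted p = 0.0965), again with no overlap in either genotype. Mcm2 ranged from a group mean of 1.53 in TG ND to 2.62 in KO HFD, and Mcm6 from 2.23 in KO ND to 2.93 in KO HFD, without a call.

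On HFD the scatter of the Mcm genes within a group was shared between subunits. On ND no array was the highest or the lowest of its group for more than 3 of the 6. In KO HFD replicate 3 was the lowest of its group for 5 of the 6 Mcm genes and for 13 of the 21 genes of G1 and S phase. In WT HFD replicate 2 was the lowest for 5 of 6 and 12 of 21, and replicate 3 the highest for 4 of 6 and 13 of 21. In TG HFD replicate 3 was the highest for 5 of 6 and 12 of 21. Over the 9657 genes of the array with a mean of at least 2, KO HFD replicate 3 was the lowest of its group for 32.1%. On the same genes WT HFD replicate 2 was the lowest for 34.9%, WT HFD replicate 3 the highest for 40.7% and TG HFD replicate 3 the highest for 24.9%. KO HFD replicate 3 was at the same time the highest array of its group for Cenpm, so Cenpm did not follow the Mcm genes there. The gap within KO HFD for Mcm6, from 2.03 to 3.38, was wider than the difference of 0.69 between the diets in KO.

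**Figure D4:**
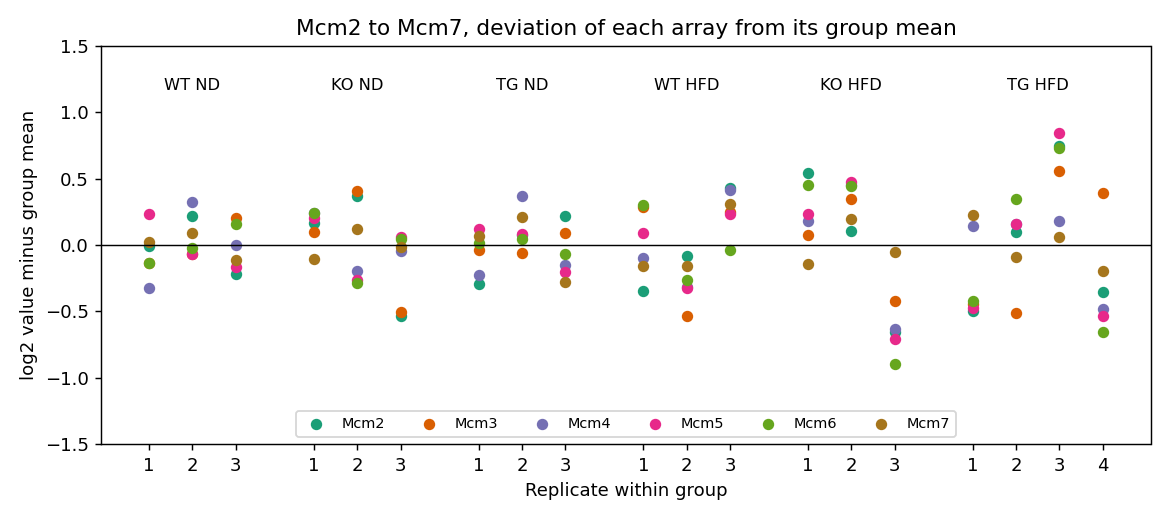
Deviation of each array from its group mean (log2) for Mcm2 to Mcm7, with the arrays of each group side by side and 1 colour per subunit. In KO HFD replicate 3 all 6 subunits lie below the group mean, and in TG HFD replicate 3 all 6 lie above it.

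Pcna, the sliding clamp of the replication fork, varied little. It read 5.93, 5.94 and 6.01 in WT ND and 6.43, 6.04 and 6.32 in WT HFD. The difference of 0.30 had a 95% confidence interval of 0.05 to 0.56 and did not pass (adjusted p = 0.323). In KO it was 0.32 (adjusted p = 0.287) and in TG 0.11 (95% confidence interval -0.12 to 0.35).

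Of the genes that supply nucleotides, Rrm2 gave the largest difference between genotypes among the 40. Rrm2 encodes the small, cell cycle-regulated subunit of ribonucleotide reductase. It read 3.56, 3.73 and 2.61 in KO ND, against 1.62, 1.56 and 1.63 in WT ND and 1.39, 1.99 and 1.54 in TG ND. All KO arrays lay above all arrays of the other genotypes, with replicate 3 the lowest of the 3. The rise was 1.69 over WT (SE 0.31, adjusted p = 0.00459, 3.24-fold) and 1.65 over TG (SE 0.31, adjusted p = 0.00441, 3.15-fold), and both passed without each array in turn (highest adjusted p 0.0362). On HFD it read 2.24, 2.63 and 2.07 in KO and 1.83, 2.06 and 2.26 in WT, and these groups overlapped. Rrm2 has a second, dim probe set with a mean of 0.39, which differed between KO ND and WT ND by 0.13 (adjusted p = 0.813 over 23521 probe sets), so the rise was seen by 1 of its 2 probe sets.

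The other genes of nucleotide supply did not pass in KO ND against WT ND. Rrm1, the large subunit of the same enzyme, was at 4.20 ± 0.25 in KO ND and 4.19 ± 0.16 in WT ND (SD, n = 3 each), a difference of 0.00 with a 95% confidence interval of -0.40 to 0.41. Tyms, which makes thymidylate, differed in the same comparison by 0.37 (adjusted p = 0.520), and Tk1, which salvages thymidine, by 0.31 (adjusted p = 0.666). Tk1 was higher in KO ND than in TG ND by 0.79 without overlap (adjusted p = 0.0692). Tyms read 3.63, 3.92 and 4.50 in WT ND and 4.65, 4.59 and 4.81 in WT HFD, a difference of 0.67 that did not pass (adjusted p = 0.175), and it was lower in TG HFD than in WT HFD by 0.64 (-0.64, adjusted p = 0.0923).

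The genes that mark or drive division itself gave no calls apart from Cenpm. Mki67 read 1.70, 1.13 and 1.78 in KO ND and 2.74, 2.47 and 2.35 in KO HFD. These arrays did not overlap, and the difference of 0.98 did not pass (95% confidence interval 0.42 to 1.54, adjusted p = 0.100). In WT it read 2.14, 2.06 and 1.95 on ND and 2.42, 1.69 and 2.70 on HFD, with a difference of 0.22 (95% confidence interval -0.34 to 0.77), and in TG the difference was 0.38 (-0.14 to 0.90). Top2a, the topoisomerase that untangles replicated chromosomes, read 1.31, 1.23 and 0.96 in KO ND and 2.13, 1.90 and 1.28 in KO HFD, a difference of 0.60 with overlap (adjusted p = 0.357). For Cdk1 the 3 diet differences were 0.09 in WT, 0.14 in KO and 0.04 in TG, with 95% confidence intervals of -0.25 to 0.43, -0.20 to 0.48 and -0.28 to 0.36. Cdc20, which activates the anaphase-promoting complex, was lower in KO ND than in WT ND by 0.45 without overlap (-0.45, adjusted p = 0.189).

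The mitotic kinases and spindle genes stayed low. Aurka, a kinase of the spindle poles, read 2.24 in WT HFD replicate 3 and between 0.54 and 1.44 in the other 18 arrays. Aurkb, the kinase of the chromosomal passenger complex, read 1.85 in TG HFD replicate 4 and at most 1.38 elsewhere. Plk1 read 1.59 in KO HFD replicate 1, 1.56 in TG HFD replicate 4 and at most 1.16 in the remaining arrays. These high arrays belong to different groups, and no comparison called any of the 3 genes. The checkpoint genes Bub1 and Bub1b and the phosphatase Cdc25c did not exceed 1.01 in any array, and Birc5, Kif11 and Nusap1 did not exceed 1.88.

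Cenpm was the exception among mitotic genes, being high on HFD in WT and KO and not in TG. Cenpm encodes a subunit of the constitutive centromere-associated network on which kinetochores are built. It read 2.26, 3.23 and 2.77 in WT ND and 4.24, 4.85 and 4.35 in WT HFD. In KO it read 2.78, 3.37 and 3.10 on ND and 4.01, 4.34 and 5.16 on HFD. In TG it read 3.33, 3.27 and 2.94 on ND and 2.87, 2.52, 3.71 and 3.14 on HFD. All 6 HFD arrays of WT and KO lay above the other 13 arrays, and TG HFD overlapped the groups on ND.

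The rise of Cenpm on HFD was 1.72 in WT (SE 0.31, adjusted p = 0.00620, 3.30-fold) and 1.42 in KO (SE 0.31, adjusted p = 0.0397, 2.68-fold). In TG the difference was -0.12 with a 95% confidence interval of -0.73 to 0.49. TG HFD was lower than WT HFD by 2.67-fold (-1.42, SE 0.29, adjusted p = 0.00943), and KO HFD higher than TG HFD by 2.72-fold (1.45, SE 0.29, adjusted p = 0.0107). On ND the genotypes did not differ beyond their spread, at 2.75 ± 0.48 in WT, 3.08 ± 0.30 in KO and 3.18 ± 0.21 in TG (SD, n = 3 each). The diet effect in TG was smaller than that in WT by 1.84 (-1.84, SE 0.43, 95% confidence interval -2.74 to -0.95), and this test of the difference did not pass over all genes (adjusted p = 0.107). It passed without TG HFD replicate 3, the highest TG HFD array (-2.06, adjusted p = 0.0392).

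The WT diet call of Cenpm was kept without each array in turn (highest adjusted p 0.0443), and so was the call of TG HFD against WT HFD (highest adjusted p 0.0491). The latter was lost when WT HFD replicate 1 and TG HFD replicate 2 were both left out (-1.36, adjusted p = 0.0609). The KO diet call was lost without KO ND replicate 1, 2 or 3 (adjusted p = 0.113, 0.0894 and 0.104) or KO HFD replicate 2 or 3 (adjusted p = 0.0912 and 0.146), and the call of KO HFD against TG HFD without KO HFD replicate 3 (1.12, adjusted p = 0.0761). The macrophage marker sums, higher in both TG groups, move with genotype beside this result, and their part in it was not tested. The neighbours of Cenpm in the RefSeq table, Shisa8, Tnfrsf13c, 1500009C09Rik and Septin3, chosen after its values were seen, were not called in any comparison. All 4 were dim, with group means between 0.23 and 1.81, where a change can be compressed.

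No diet effect among the 40 genes passed as different between genotypes. Of the 40 none was called in limma for KO minus WT at a background of 0.825%. At an unadjusted p under 0.05, 2 of 40 were higher and 4 lower, against 1304 and 1109 of all 22180 genes. None was called for TG minus WT at a background of 0.221%. There 1 was higher and 3 lower at that unadjusted p, against 782 and 963 of all genes. Besides Cenpm and Cdc6, the smallest p belonged to Rrm2 (-1.43, SE 0.44, adjusted p = 0.174) and Cdk4 (0.58, SE 0.20, adjusted p = 0.252) for KO and to Ccnd2 (-0.59, SE 0.24, adjusted p = 0.550) for TG.

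The position of each group in the order of means shows where the 21 genes of G1 and S phase were low. The lowest of the 6 group means lay in KO ND for 9 genes, in TG ND for 7, in WT ND for 4 and in TG HFD for 1, and for none in WT HFD or KO HFD. The highest lay in KO HFD for 9, in WT HFD for 5, in KO ND for 4 and in WT ND for 3. Among the 9657 genes of the whole array with a mean of at least 2, the lowest mean lay in KO ND for 21.2%, in TG ND for 13.1%, in WT ND for 15.8%, in TG HFD for 22.5%, in WT HFD for 15.3% and in KO HFD for 12.0%. The highest lay in KO HFD for 16.8%, in WT HFD for 15.0%, in KO ND for 16.1% and in WT ND for 18.6%.

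Other genes of the same pathways, in lists chosen with earlier results known, moved in small numbers. Of 41 other S-phase genes none was called on HFD in any genotype, with medians of 0.09 in WT, 0.17 in KO and 0.11 in TG. In TG HFD against WT HFD, where 3.57% of all genes were called, 3 of 41 fell: the replication protein Rpa2 (-0.61, adjusted p = 0.0162), the primase subunit Prim1 (-0.72, adjusted p = 0.0414) and the polymerase subunit Pole (-0.74, adjusted p = 0.0430). In KO HFD against TG HFD, where 2.35% of all genes were called, 3 of 41 were higher: Rpa2 (0.86, adjusted p = 0.00187), the primase subunit Prim2 (0.89, adjusted p = 0.0251) and the clamp loader subunit Rfc5 (0.52, adjusted p = 0.0468). Of these 6 calls only that of Rpa2 in KO HFD against TG HFD was kept without each array in turn. The highest adjusted p without 1 array was 0.0932 for Rpa2 in TG HFD against WT HFD, 0.161 for Prim1 and 0.213 for Pole, each without WT HFD replicate 1, and 0.145 for Prim2 (without KO HFD replicate 1) and 0.216 for Rfc5 (without KO HFD replicate 2). With WT HFD replicate 1 and TG HFD replicate 2 both left out, these 5 calls were lost too, at an adjusted p of 0.197 for Rpa2 in TG HFD against WT HFD, 0.188 for Prim1, 0.263 for Pole, 0.0896 for Prim2 and 0.0524 for Rfc5.

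Of 58 other mitotic genes, the kinetochore genes Spc24 and Spc25, partners in the Ndc80 complex, and the securin gene Pttg1 were called most often. On HFD 1 of 58 rose in WT (Spc25) and 1 in KO (the lamin gene Lmnb1, 1.09, adjusted p = 0.0358; 0.168 without KO ND replicate 2). These comparisons called 1.32% and 0.803% of all genes. In TG HFD against WT HFD, with 3.57% of all genes called, 1 of 58 was higher and 3 were lower. Pttg1 read 3.46, 2.97 and 2.99 in TG ND and 1.11, 1.35 and 1.77 in WT ND, a rise of 1.72 (SE 0.28, adjusted p = 0.00221). In KO HFD it was lower than in TG HFD (-1.28, adjusted p = 0.0109), which did not pass without KO HFD replicate 2 (adjusted p = 0.0636). It was also higher in TG HFD than in WT HFD by 1.24 (adjusted p = 0.0108; 0.0667 without WT HFD replicate 1). Spc24 was lower in TG HFD than in WT HFD by 1.07 (-1.07, adjusted p = 0.0145; 0.0845 without WT HFD replicate 1) and higher in KO ND than in TG ND by 1.59 (adjusted p = 0.00105). Spc25 rose on HFD in WT by 0.86 (adjusted p = 0.0290), from 3.29, 3.17 and 3.36 to 4.38, 3.68 and 4.35, and fell in TG HFD against WT HFD by 0.85 (-0.85, adjusted p = 0.0108; 0.0763 without WT HFD replicate 1). In KO ND Spc25 was higher than in TG ND (0.70, adjusted p = 0.0441), which did not pass without KO ND replicate 2 (adjusted p = 0.226). Leaving out any of 5 of the 6 arrays ended the WT diet call of Spc25, with an adjusted p of up to 0.159 (WT HFD replicate 1 left out). With WT HFD replicate 1 and TG HFD replicate 2 both left out, that call was lost (adjusted p = 0.148), and so were those in TG HFD against WT HFD of Pttg1 (adjusted p = 0.0906), Spc24 (adjusted p = 0.179) and Spc25 (adjusted p = 0.163).

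A list of 38 measured genes joined G1 regulators with brakes of the cycle, and the 9 comparisons of 2 groups called 0.338% to 4.2% of all genes. Plk3 was called in 3, and the cyclin G genes Ccng1 and Ccng2 in 1 each. Ccng1 was lower in TG HFD than in WT HFD (-0.68, adjusted p = 0.0274), and Ccng2 fell on HFD in KO (-0.64, adjusted p = 0.0409). Without 1 array these reached an adjusted p of 0.143 and 0.155. The kinase Wee1, which holds Cdk1 inactive and is also an output of the circadian clock, was called most often, in 4 of 9 comparisons. It read 5.41, 5.43 and 5.47 in KO ND against 1.76, 1.98 and 2.89 in WT ND, and 2.28, 1.91 and 1.73 in TG ND. The difference was 3.22 from WT (SE 0.34, adjusted p = 1.79e-05) and 3.46 from TG (adjusted p = 7.70e-06). On HFD all 3 genotypes were high, so that it rose with diet by 3.06 in WT (adjusted p = 7.24e-05) and by 3.09 in TG (adjusted p = 3.04e-05). The stress-responsive kinase Plk3 was likewise higher in KO ND than in WT ND, by 2.52 (SE 0.37, adjusted p = 0.000577), and fell on HFD in KO by 1.71 (-1.71, adjusted p = 0.0361; 0.172 without KO ND replicate 2). Rrm2, Ccne1, Wee1 and Plk3 are set together because they were called in KO ND, so their shared height in that group follows from the choice. In none of the 4 did KO HFD differ from WT HFD at an adjusted p under 0.05, but they came to this in different ways. Wee1 averaged 5.43 in KO ND and 5.49 in KO HFD, with WT HFD at 5.27 and TG HFD at 5.07. Plk3 went from 7.19 in KO ND to 5.48 in KO HFD.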

How the data were processed

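Whole-liver RNA of 19 mice was hybridised to 1 Affymetrix array each. The authors deposited 1 table of log2 values per probe set, already normalized between arrays, with 41345 probe sets. Per the submitters' processing notes, limma, affy and RMA were used, in roles and versions that are not stated. That the base is 2 and that RMA made the values was inferred from those names and the value range, and a different base would scale every difference by 1 factor. RMA subtracts background and equalises the distributions of the arrays. Background that remains in the signal compresses differences of dim genes. Genome build and library batch are not given in the sources used here.

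The platform annotation gives 1 symbol to 23521 probe sets, several to 1814 and none here to 16010. Entrez identifiers of 23328 matched a RefSeq table (GRCm38.p6) and no symbol changed. The probe set with the highest mean stood for each of 1082 symbols with several, leaving 22180 genes, with no filter on level. Groups were taken from the sample titles, and replicates were taken as separate animals because each title carries its own animal number. If they were not, p-values would measure technical spread only.

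All 19 arrays were fitted with limma 3.58.1 in R 4.3.3 as 6 group means, with 13 residual and 4.76 prior degrees of freedom, which the number of animals limits. From the fit came 9 comparisons of 2 groups and 2 interactions, with two-sided p-values adjusted by Benjamini-Hochberg over 22180 genes in each. SE is the moderated standard error. The same steps were tested on simulated data. Alternatives were the fit of only the arrays compared, genes with a mean of at least 2, centring of arrays on their median, a prior that follows the mean level, the mean of all probe sets of a gene, and leaving out arrays.

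The 42 genes, their division by phase, the other lists and the motifs were chosen with earlier results of these data known. Genes named with full values are those called in any comparison, the 3 of smallest p in each, and a preset list of 17 headed by Mki67. Of the other lists, up to 3 called genes per comparison are named, and others are named for a stated reason. Figures were drawn with Python 3.11.15 and matplotlib 3.10.9.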

Additional observations from a re-analysis of the deposited data

Results flagged for a closer look

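In TG HFD, the 1 group with 4 arrays, a single array lay apart from the other 3 for 6 of the 53 genes examined (11.3%), where chance gives about 1 in 20. Ccne1 read 2.96 in replicate 2, with the others between 2.23 and 2.33. Mcm4, a helicase subunit, read 2.90 in replicate 4, with the others between 3.53 and 3.56, and this array was also the lowest of the group for 4 of the 6 Mcm genes. Pcna read 6.08 in replicate 2 beside 6.13 to 6.14, a gap that stands out only because the other 3 lay so close together. Cdk1 read 1.05 in replicate 1 beside 0.68 to 0.74, Cdc25b 0.62 in replicate 3 beside 0.76 to 0.78, and Aurka 0.65 in replicate 3 beside 1.18 to 1.26, all at dim levels.

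Diet effects differed between KO and WT for 3 genes of the other lists, by the interaction in limma. The effect in KO minus that in WT was -3.00 for Wee1 (adjusted p = 0.00614), -2.74 for Plk3 (adjusted p = 0.0157) and -1.19 for Spc25 (adjusted p = 0.0444). Spc25 read 3.36, 3.94 and 3.55 in KO ND and 3.27, 3.38 and 3.20 in KO HFD, so that it was not higher on HFD in KO as it was in WT. The Wee1 difference was kept without each of its 12 arrays. The Plk3 difference was lost without 2 of them (highest adjusted p 0.0529, without WT HFD replicate 3), and the Spc25 difference without 10 (highest adjusted p 0.126, without KO ND replicate 2). With WT HFD replicate 1 and TG HFD replicate 2 both left out, both were lost, at an adjusted p of 0.0502 for Plk3 and 0.11 for Spc25.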

How the results depend on the processing

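No paired analysis was possible because the animal numbers in the titles are not shared between groups. No direction reversed among the 769 values of named genes recomputed, of which 133 lost their call and 9 gained one. Of 288 medians of the 2 classes recomputed, 14 moved by more than 1 SD, and centring shifted the median of all genes by at most 0.047.

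Counts of the 40 genes called moved as follows. With only the arrays compared in the fit, the count went from 3 to 0 on HFD in KO, from 1 to 0 in KO HFD against TG HFD (Cenpm, adjusted p = 0.101), from 1 to 2 on HFD in WT and from 0 to 1 for the diet effect in KO minus that in WT (Cdc6), while in KO ND against WT ND it stayed at 2 with E2f8 in place of Ccne1 and in KO ND against TG ND at 3 with Tk1 in place of Ccnd2. With genes of a mean of at least 2, it went from 1 to 3 on HFD in WT (adding Ccnd1 and Ccnd2, the latter at an adjusted p of 0.0497) and from 1 to 2 in TG HFD against WT HFD (adding Mcm3). Fewer genes are tested there. With WT HFD replicate 1 and TG HFD replicate 2 both left out, TG HFD against WT HFD went from 1 to 0. Leaving out 1 array in turn gave 0 to 2 on HFD in KO, 1 to 2 in WT and 0 to 1 in TG, 1 to 2 in TG HFD against WT HFD, 1 to 2 in KO ND against WT ND, 2 to 3 in KO ND against TG ND, 0 to 1 in KO HFD against TG HFD and 0 to 1 for the diet effect in TG minus that in WT. Centring also ended the diet call of Cenpm in KO (adjusted p = 0.0543). Low signal over background limits the 16 dim mitotic genes, and 3 or 4 arrays limit each mean.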
